A study of Mus musculus with 6 samples.

Results

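The killer cell lectin-like receptors are C-type lectin proteins of natural killer (NK) cells and some T cells, encoded on mouse chromosome 6, most of them side by side in the natural killer gene complex. The members described here are the 8 genes Klrd1, Klrk1, Klrc1, Klra5, Klra7, Klra8, Klrb1c and Klrg1. Every probe set that the platform annotation assigns to 1 of these genes was taken, which gave 10 probe sets, 2 each for Klrc1 and Klra7 and 1 for each of the others, of 45037 tested: 1460245_PM_at (Klrd1), 1450495_PM_a_at (Klrk1), 1425005_PM_at and 1426182_PM_a_at (Klrc1), 1420789_PM_at (Klra5), 1426171_PM_x_at and 1451664_PM_x_at (Klra7), 1425417_PM_x_at (Klra8), 1449570_PM_at (Klrb1c) and 1420788_PM_at (Klrg1). In all, 17097 genes had a probe set with 1 gene symbol.

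Messenger RNA was measured on 6 one-colour arrays from mouse T cells positive for CD4 and depleted of CD25-positive cells, from female C57BL/6 mice; the labels name spleen and lymph nodes as the source and their protocol only spleen. Every well received 10 ng/ml of mouse IL-2 and 0.36 ng/ml of human TGF-beta, was coated with anti-CD3 at 2 µg/ml, which triggers the T cell receptor, and was harvested after 4 days. The first group had anti-CD3, the second added 3 µg/ml of rB7-2.Fc (B7-2 is the CD28 ligand of antigen-presenting cells), and the third held anti-CD3, rB7-2.Fc and 11 µg/ml of rBTNL2.Fc (BTNL2 is a butyrophilin-like protein). The protocol names IgG1 as the control protein used in place of rBTNL2.Fc. Each group, called here the anti-CD3, B7-2 and BTNL2 wells, has 2 arrays, 1 per culture. Nothing in the labels says that duplicate cultures came from separate animals, so p-values measure only the spread between cultures, and ligands were plate-bound Fc proteins, not ligands on living cells.

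These receptors decide, together, whether an NK cell or a cytotoxic T cell attacks. Inhibitory members carry a tyrosine motif in their tail that recruits phosphatases, and activating members lack it and signal through small adaptor proteins. CD94 (Klrd1) pairs with NKG2A (Klrc1) to form an inhibitory receptor for the nonclassical MHC molecule Qa-1 (H2-T23), NKG2D (Klrk1) is an activating receptor for stress-induced ligands, the Ly49 proteins (Klra genes) mostly read classical MHC class I, NK1.1 is the product of Klrb1c, and KLRG1 binds cadherins. Conventional CD4 T cells usually carry few of them.

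RMA intensities, on a linear scale of arbitrary units, had medians of 18.4 to 18.8 over all probe sets of an array. The 23 nonspecific control probe sets, which match no transcript, had medians of 3.68 to 4.49 and a highest value of 5.02 to 5.99. Duplicates correlated at r = 0.996 to 0.997 over the 45037 probe sets and arrays of different groups at 0.978 to 0.988. The ratio of 3' to 5' signal of Gapdh, a measure of RNA integrity, was highest in the BTNL2 wells (1.40 and 1.43, against 1.27 to 1.37 elsewhere), and its part in the results was not tested. The same ratio of beta-actin was 1.79 and 1.72 in the BTNL2 wells, within the range of 1.67 to 1.92 of the other arrays. Of the 10 member probe sets, 8 had a mean above the 40th percentile of all probe sets (an intensity of 12.4), and the second Klrc1 probe set and that of Klra8 did not. Each log2 change is printed with its limma standard error, with n = 2 arrays per group. Group means of members called are printed ± SD (n = 2).

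Klrd1, which encodes CD94, was the member that moved in every comparison. It read 129 and 149 in the anti-CD3 wells, 32.6 and 42.2 in the B7-2 wells and 201 and 220 in the BTNL2 wells. The means were 139 ± 14.2, 37.4 ± 6.80 and 210.1 ± 13.3, and the 3 groups did not overlap, with B7-2 lowest and BTNL2 highest. With 2 arrays a group such separation is common. It held for 55.6% of all probe sets in B7-2 against anti-CD3, 53.6% in BTNL2 against B7-2 and 57.7% in BTNL2 against anti-CD3. Klrd1 was 3.74-fold lower in the B7-2 wells than with anti-CD3 alone (log2 change -1.90 ± 0.15, limma adjusted p = 0.000463). It was 5.67-fold higher with BTNL2 than with B7-2 (log2 change 2.50 ± 0.15, adjusted p = 7.05e-05). Against anti-CD3 alone the BTNL2 wells were 1.51-fold higher (log2 change 0.60 ± 0.15, adjusted p = 0.024). That last call did not hold without the first anti-CD3 array (log2 change 0.49, adjusted p = 0.133), without the first BTNL2 array (0.66, adjusted p = 0.0689) or without the second (0.53, adjusted p = 0.119). The first 2 comparisons share the B7-2 arrays, so the fall and the rise are not independent of each other.

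**Figure D1:**
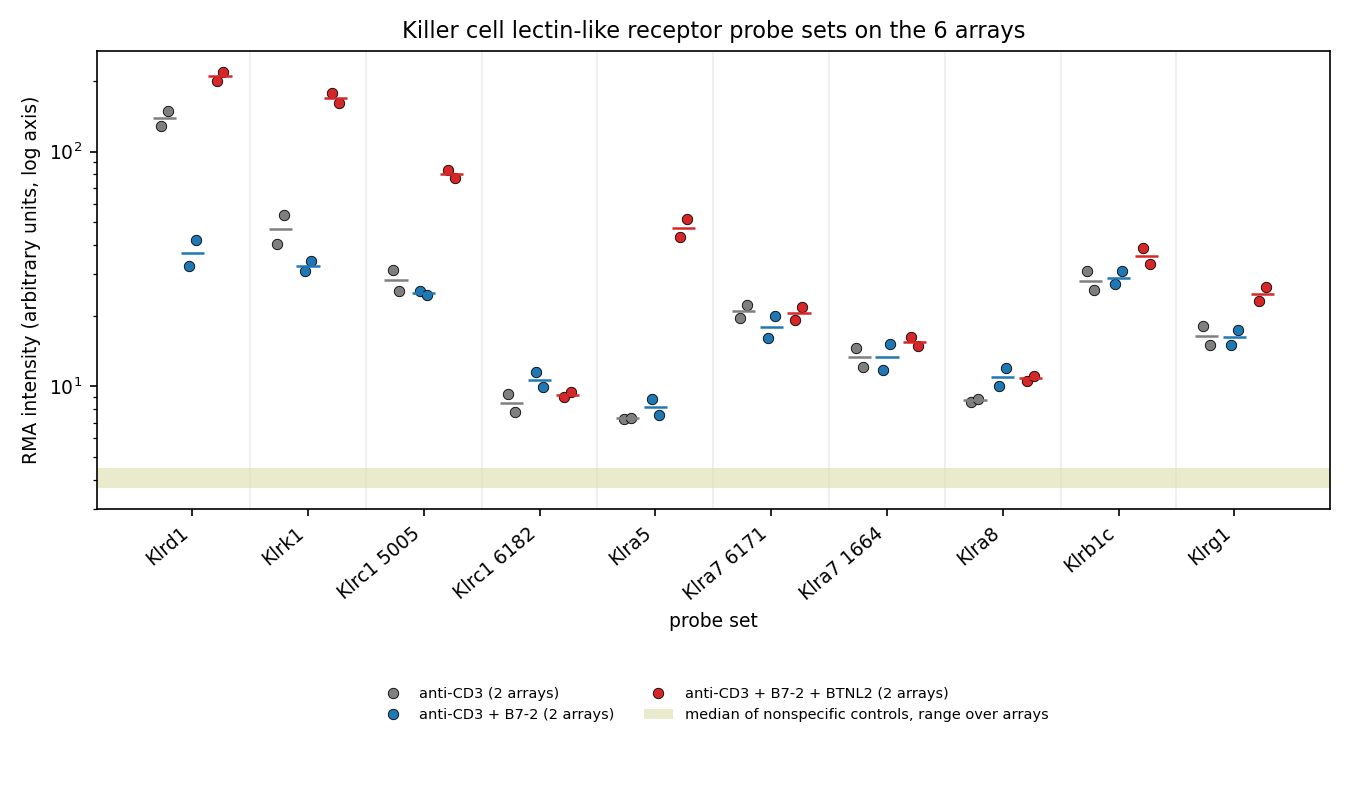
Each point is 1 array, with the RMA intensity on a log axis, the probe sets along the horizontal axis, horizontal bars for the geometric mean of 2 arrays and a band for the medians of the nonspecific controls; numbers after Klrc1 and Klra7 are the last digits of the probe set, and levels of different probe sets cannot be compared. The BTNL2 points of Klrd1 (201 and 220), Klrk1 (179 and 162), the brighter Klrc1 probe set (83.8 and 77) and Klra5 (43.4 and 51.6) lie above all other points of the same probe set, and the B7-2 points of Klrd1 (32.6 and 42.2) lie below its anti-CD3 points.

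Klrc1 encodes NKG2A, the inhibitory partner of CD94. Its brighter probe set (1425005_PM_at) read 31.4 and 25.5 in the anti-CD3 wells, 25.5 and 24.4 in the B7-2 wells and 83.8 and 77 in the BTNL2 wells. The means were 28.5 ± 4.22, 24.9 ± 0.764 and 80.4 ± 4.84. Only the BTNL2 arrays stood clear, and the anti-CD3 and B7-2 arrays lay next to each other. The rise was 3.22-fold over B7-2 (log2 change 1.69 ± 0.13, adjusted p = 0.00018) and 2.84-fold over anti-CD3 alone (log2 change 1.51 ± 0.13, adjusted p = 0.000219). B7-2 against anti-CD3 gave a log2 change of -0.18 ± 0.13 with a 95% interval of -0.48 to 0.11 (adjusted p = 0.403). The other Klrc1 probe set (1426182_PM_a_at) read 7.79 to 11.5 over the 6 arrays, and its log2 change with BTNL2 was -0.21 ± 0.12 against B7-2 (adjusted p = 0.342) and 0.12 ± 0.12 against anti-CD3 (adjusted p = 0.601). The 2 probe sets of Klrc1 therefore disagreed, and the rise of Klrc1 rests on the brighter. The mean of both had a log2 change of 0.74 against B7-2 (adjusted p = 0.00361) and 0.81 against anti-CD3 (adjusted p = 0.0015). That mean contains the brighter probe set, so it cannot settle the disagreement. Klrc2 and Klrc3, which encode the other partners of CD94, read 4.58 to 5.33 and, over 2 probe sets, 4.52 to 6.42, close to the nonspecific controls, and none of their probe sets was called in any comparison.

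Klrk1 encodes NKG2D. It read 40.6 and 53.9 in the anti-CD3 wells, 31.1 and 34.1 in the B7-2 wells and 179 and 162 in the BTNL2 wells. The means were 47.2 ± 9.42, 32.6 ± 2.07 and 170.1 ± 11.8, with both BTNL2 arrays far above the other 4. The rise was 5.22-fold over B7-2 (log2 change 2.38 ± 0.15, adjusted p = 8.6e-05) and 3.63-fold over anti-CD3 alone (log2 change 1.86 ± 0.15, adjusted p = 0.00018). The anti-CD3 and B7-2 arrays of Klrk1 did not overlap either, as those of 55.6% of all probe sets did not. That difference of Klrk1 lay at the edge of the threshold (log2 change -0.52 ± 0.15, adjusted p = 0.0506). It was called lower in the B7-2 wells without the first anti-CD3 array (log2 change -0.73, adjusted p = 0.0274), with a variance prior that follows intensity (adjusted p = 0.023), without dim probe sets (adjusted p = 0.0375), with 1 probe set per gene (adjusted p = 0.0396) and with the mean of a gene's probe sets (adjusted p = 0.0352). Over all alternatives its adjusted p reached 0.226, without the second anti-CD3 array.

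Promoters of 6 of the 8 genes were in the RefSeq table of GRCm38.p6, each 250 bases before to 50 bases after a start site. Those of Klrk1 (chr6:129623815-129624114, minus strand) and Klrc1 (chr6:129678924-129679223, minus strand) are shown because both genes were called higher in the BTNL2 wells. Klrc3 and Klrc2 lie between them in the gene order. The motifs searched were GGTGTGA for T-box factors, TGTGGT for RUNX factors, TGANTCA for AP-1 and TTCNNNGAA for STAT factors, each on both strands, and capitals mark the matches.
Klrk1: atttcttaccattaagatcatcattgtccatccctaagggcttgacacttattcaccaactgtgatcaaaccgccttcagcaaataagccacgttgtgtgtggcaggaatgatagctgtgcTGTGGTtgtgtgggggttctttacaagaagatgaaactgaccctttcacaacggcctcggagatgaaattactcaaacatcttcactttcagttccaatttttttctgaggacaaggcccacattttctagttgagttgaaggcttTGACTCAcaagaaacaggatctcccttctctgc
Klrc1: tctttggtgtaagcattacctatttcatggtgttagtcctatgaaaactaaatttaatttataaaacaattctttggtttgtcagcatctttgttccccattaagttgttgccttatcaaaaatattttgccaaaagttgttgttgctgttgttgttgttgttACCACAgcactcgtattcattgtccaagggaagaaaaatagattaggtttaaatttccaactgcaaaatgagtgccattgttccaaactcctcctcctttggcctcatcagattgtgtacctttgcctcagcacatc
Klrk1 held 1 RUNX match, starting 129 bases before the start site, and 1 AP-1 match just after it, and Klrc1 held 1 RUNX match on the other strand, starting 87 bases before. The RUNX letters are in 16.8% of the 32851 promoters of that length, those of AP-1 in 7.81%, those of STAT in 8.3% and those of T-box in 3.98%. The promoter of Klrb1c, which did not pass any test, also held 1 RUNX match, and the T-box letters were in none of the members' promoters in the table. These matches describe letters in a window and are not binding sites.

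Among the 3 Ly49 members, Klra5 rose with BTNL2, and Klra7 and Klra8 did not pass the test. Klra5 encodes Ly49E, an inhibitory receptor that is the Ly49 protein of fetal NK cells. It read 7.28 and 7.31 in the anti-CD3 wells, 8.87 and 7.55 in the B7-2 wells and 43.4 and 51.6 in the BTNL2 wells. The means were 7.29 ± 0.0212, 8.21 ± 0.933 and 47.5 ± 5.79. Outside the BTNL2 wells its signal was therefore within a few units of the highest nonspecific control, so the folds rest on a dim base. They were 5.78-fold over B7-2 (log2 change 2.53 ± 0.13, adjusted p = 3.6e-05) and 6.49-fold over anti-CD3 alone (log2 change 2.70 ± 0.13, adjusted p = 2.42e-05).

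Klra7 encodes Ly49G, an inhibitory receptor for MHC class I. Its 2 probe sets read 16.1 to 22.3 and 11.8 to 16.2 over the 6 arrays, with BTNL2 and B7-2 arrays overlapping in both. Against B7-2 their log2 changes were 0.20 ± 0.14, with a 95% interval of -0.12 to 0.52, and 0.22 ± 0.15, with a 95% interval of -0.14 to 0.57. Klra8 encodes Ly49H, the activating receptor of C57BL/6 mice for a cytomegalovirus protein. It read 8.58 and 8.82 in the anti-CD3 wells, 10 and 12 in the B7-2 wells and 10.6 and 11.1 in the BTNL2 wells, and BTNL2 against B7-2 gave a log2 change of -0.02 ± 0.11 with a 95% interval of -0.29 to 0.25 (adjusted p = 0.944). The intervals of these 3 probe sets lie below that of Klra5, which was 2.23 to 2.83, though the difference between the genes was not itself tested.

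The Klra promoters are shown because these genes are close relatives that did not move alike. They are Klra5 at chr6:129913175-129913474, Klra7 at chr6:130233273-130233572 and Klra8 at chr6:130129849-130130148, all on the minus strand, and of the 2 entries each for Klra7 and Klra8 the one more like Klra5 was taken. Capitals mark the longest run of letters that all 3 share.
Klra5: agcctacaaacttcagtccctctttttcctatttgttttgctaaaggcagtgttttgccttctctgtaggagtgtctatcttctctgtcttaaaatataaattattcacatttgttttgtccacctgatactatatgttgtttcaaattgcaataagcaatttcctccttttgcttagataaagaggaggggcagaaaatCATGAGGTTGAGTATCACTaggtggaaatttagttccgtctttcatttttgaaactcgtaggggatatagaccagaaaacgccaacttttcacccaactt
Klra7: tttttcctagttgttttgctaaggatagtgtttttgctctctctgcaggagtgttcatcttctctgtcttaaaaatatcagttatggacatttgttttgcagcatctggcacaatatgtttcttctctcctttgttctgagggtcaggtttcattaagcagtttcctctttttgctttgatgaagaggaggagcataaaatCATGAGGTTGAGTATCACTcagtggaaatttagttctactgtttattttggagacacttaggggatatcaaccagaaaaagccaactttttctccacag
Klra8: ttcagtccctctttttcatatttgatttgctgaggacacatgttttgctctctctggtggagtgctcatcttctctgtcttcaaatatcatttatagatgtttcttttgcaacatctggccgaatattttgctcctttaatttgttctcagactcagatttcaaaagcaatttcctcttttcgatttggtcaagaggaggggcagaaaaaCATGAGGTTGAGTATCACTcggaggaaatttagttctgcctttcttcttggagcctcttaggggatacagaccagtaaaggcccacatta
Over a global alignment Klra5 was identical to Klra7 at 70.6% of columns and to Klra8 at 70.2%, and Klra7 to Klra8 at 74.3%, whereas Klra5 and Klrk1, of different families, were identical at 45.5%. The shared run of 19 bases starts 50, 49 and 40 bases before the start sites of Klra5, Klra7 and Klra8, and among all 32851 promoters it occurs in 5, of the genes Klra5, Klra6, Klra7 and Klra8. The 3 entries shown share much of their sequence, but those of Klra7 and Klra8 were picked for their likeness to Klra5. None of the 3 held any of the 4 motifs. The other Klra7 entry was identical to Klra5 at 46.5% of columns, near the 45.5% of Klrk1, and the other Klra8 entry at 53.3%. That other Klra7 entry held 2 matches to the STAT letters.

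Suffixes of probe sets matter in this family. The probe sets of Klra7 and Klra8 end in _x_at, a suffix for probes that can also match other transcripts, so the signal of a Ly49 gene may include that of its relatives, while that of Klra5 ends in _at. Klra9, which encodes Ly49I and is no member, is also measured by an _x_at probe set. It read 37.8 and 33.7 in the anti-CD3 wells, 29.1 and 42.4 in the B7-2 wells and 96.9 and 98.9 in the BTNL2 wells, a rise of 2.79-fold over B7-2 (log2 change 1.48 ± 0.17, adjusted p = 0.00145). Which Ly49 transcript this signal came from was not tested.

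Klrb1c, whose product NK1.1 is the classical marker of NK cells in C57BL/6 mice, did not pass in any comparison. It read 30.9 and 25.7 in the anti-CD3 wells, 27.2 and 31 in the B7-2 wells and 38.7 and 33.1 in the BTNL2 wells. The BTNL2 arrays lay above all others by a small margin, with a log2 change of 0.30 ± 0.14 against B7-2 (95% interval -0.02 to 0.62, adjusted p = 0.22) and 0.34 ± 0.14 against anti-CD3 (adjusted p = 0.128). Its relative Klrb1a, which encodes an NKR-P1 receptor and is no member, read 6.51 and 7.09, 6.36 and 5.53, and 14.5 and 18.6 in the 3 groups and rose 2.77-fold over B7-2 (log2 change 1.47 ± 0.14, adjusted p = 0.000651).

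Klrg1 encodes an inhibitory receptor of antigen-experienced T cells and mature NK cells. It read 18.1 and 15 in the anti-CD3 wells, 15 and 17.5 in the B7-2 wells and 23 and 26.5 in the BTNL2 wells, with means of 16.5 ± 2.18, 16.2 ± 1.77 and 24.8 ± 2.45, so that only the BTNL2 arrays stood apart. The rise was small, 1.53-fold over B7-2 (log2 change 0.61 ± 0.14, adjusted p = 0.0262) and 1.5-fold over anti-CD3 alone (log2 change 0.59 ± 0.14, adjusted p = 0.0204). Against B7-2 the call was lost without the first B7-2 array (log2 change 0.50, adjusted p = 0.138), the first BTNL2 array (0.71, adjusted p = 0.0614) or the second (0.51, adjusted p = 0.126). Against anti-CD3 it was lost without the second anti-CD3 array (0.45, adjusted p = 0.123) or the second BTNL2 array (0.48, adjusted p = 0.113).

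Counted over all members, 5 of the 10 probe sets, from 5 of the 8 genes, were higher in the BTNL2 wells than in the B7-2 wells and 0 were lower (5 and 0 in limma at an unadjusted p under 0.05, which 26.3% of all probe sets met), where 13.8% of all 45037 probe sets were called, 6.77% higher and 7.04% lower. The median log2 change of the 10 was 0.46, against -0.01 over all probe sets. In the comparison with anti-CD3 alone the same 5 genes, Klrd1, Klrk1, Klrc1, Klra5 and Klrg1, were higher and 0 lower (median 0.46, against 0.01), where 22.2% of all probe sets were called, 11.5% higher and 10.7% lower. At an unadjusted p under 0.05 the members counted 7 higher and 0 lower there in limma, where 32.5% of all probe sets met that limit. For B7-2 against anti-CD3 the count was 1, the fall of Klrd1, and the median was -0.01, against 0.01. With 17.3% of all probe sets called there, 8.78% higher and 8.56% lower, 1 of 10 is near the background. At an unadjusted p under 0.05 limma gave 2 members higher and 2 lower there, where 29.3% of all probe sets met that limit. The 2 comparisons of BTNL2 share the BTNL2 arrays. The members were chosen with results on these data known, and the counts describe them only.

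**Figure D2:**
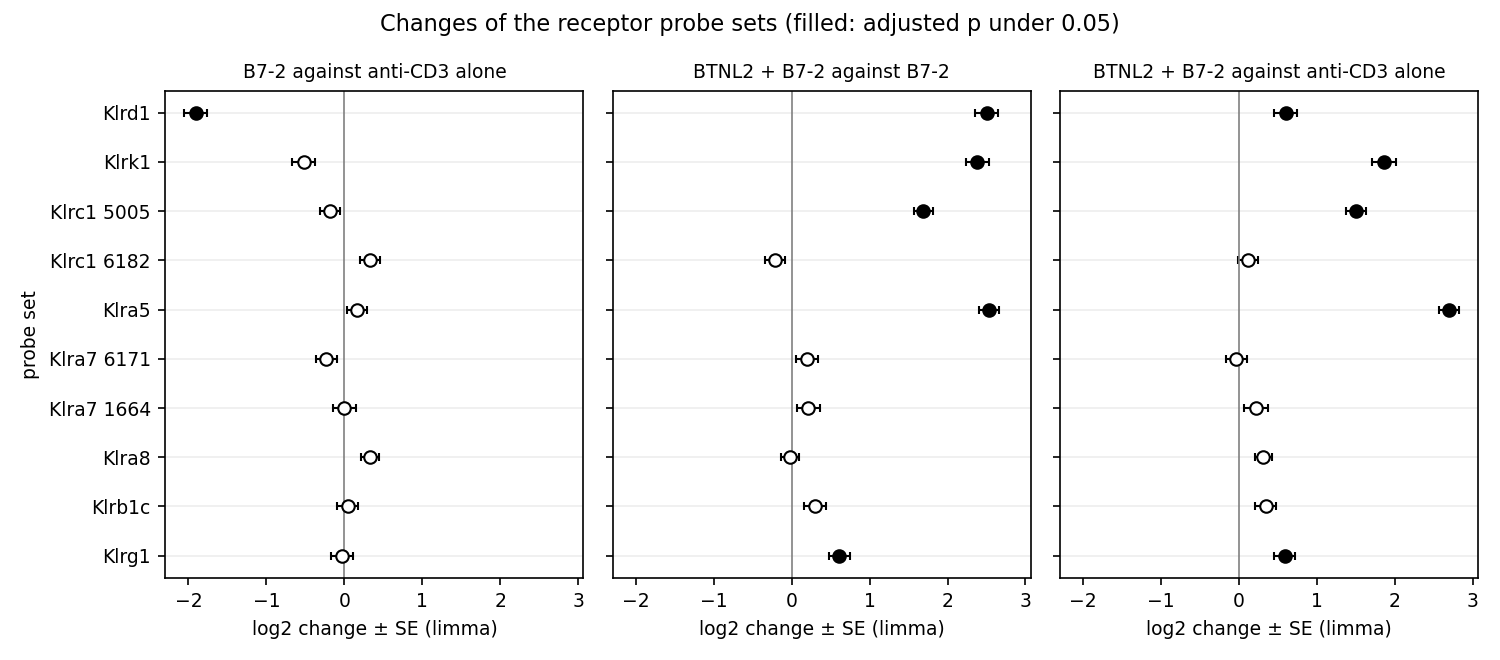
Log2 change of each member probe set (horizontal axis, with standard errors from limma) in the 3 comparisons, with filled points where the adjusted p was under 0.05. With B7-2 only Klrd1 is filled, at -1.90, and in both BTNL2 panels 5 points are filled and all lie to the right of 0, up to 2.70 for Klra5.

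Genes of the same family outside the members mostly gave signals near background. The annotation held 19 further Klr probe sets from 11 genes, of which 12 stayed below an intensity of 10 on every array. Of these 19, 3 were higher and 1 lower with BTNL2 than with B7-2. Those of Klra9, Klrb1a and 1 of 2 of Klrb1f were higher, and that of Klrg2 was lower (log2 change -0.51 ± 0.13, adjusted p = 0.0371). Of all probe sets 13.8% were called in that comparison, 6.77% higher and 7.04% lower. In a list of 28 other Klr and neighbouring lectin genes, 13 were measured, and 3 rose, 1 fell and 9 did not pass against B7-2. Cd69, an early activation gene in the same complex, was the third that rose (log2 change 0.63 ± 0.13, adjusted p = 0.0163). Among all genes, each represented by 1 probe set, 17.4% were called in that comparison (8.08% higher, 9.35% lower). Against anti-CD3 alone 2 of the 13 were higher and 1 lower, with 27.4% of all genes called (12.6% higher, 14.8% lower). With B7-2 against anti-CD3 1 was higher and 1 lower, with 21.3% of all genes called (9.61% higher, 11.7% lower).

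The direct adaptors of the activating receptors are Hcst, Tyrobp and Fcer1g, and all 3 rose with BTNL2 over B7-2. Hcst (DAP10), the signalling partner of NKG2D, read 379 and 367 with anti-CD3, 204 and 202 with B7-2 and 329 and 283 with BTNL2. It fell with B7-2 (log2 change -0.88 ± 0.11, adjusted p = 0.00207) and rose with BTNL2 over B7-2 (0.59 ± 0.11, adjusted p = 0.0112). Tyrobp (DAP12), which serves NKG2D and activating Ly49 receptors, read 10.1 and 14.4, 12.4 and 13, and 24 and 22 in the 3 groups and rose 1.80-fold over B7-2 (log2 change 0.85 ± 0.17, adjusted p = 0.0141). Fcer1g, the adaptor of NK1.1, read 49.4 and 48.2, 46.6 and 47.6, and 148 and 153, and rose 3.20-fold over B7-2 (log2 change 1.68 ± 0.09, adjusted p = 5.55e-05). Against anti-CD3 alone the 3 adaptors differed. Tyrobp (log2 change 0.93 ± 0.17, adjusted p = 0.00605) and Fcer1g (1.63 ± 0.09, adjusted p = 4.71e-05) were higher with BTNL2. Hcst was not called there (-0.29 ± 0.11, adjusted p = 0.105), and its BTNL2 arrays lay below those of anti-CD3. Of 21 measured adaptor and signalling genes, 9 rose and 1 fell against B7-2, with a median log2 change of 0.27, against -0.01 over all genes. Pik3r1, a regulatory subunit of PI3 kinase, rose (1.40), as did the kinase gene Fyn (0.89), while Sh2d1a, the adaptor SAP, fell (-1.22). Of the same 21, 6 were higher and 2 lower against anti-CD3 alone, and with B7-2 against anti-CD3 2 were higher and 3 lower, among the latter Hcst and Pik3r1 (-0.58). The shares of all genes called were 17.4% against B7-2, 27.4% against anti-CD3 and 21.3% for B7-2 against anti-CD3, which the last count was near.

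Ligand genes of the receptors moved in different directions. H2-T23, which encodes Qa-1, the ligand of CD94 and NKG2A, fell in all 3 comparisons. Its brighter probe set read 2791 and 2699 with anti-CD3, 2119 and 2076 with B7-2 and 1439 and 1566 with BTNL2. These groups did not overlap, which was common among all probe sets, as given for Klrd1. The log2 change was -0.39 ± 0.10 for B7-2 over anti-CD3 (adjusted p = 0.0326), -0.48 ± 0.10 for BTNL2 over B7-2 (adjusted p = 0.0163) and -0.87 ± 0.10 for BTNL2 over anti-CD3 (adjusted p = 0.000771), and the other probe set gave -1.03, -0.97 and -2.00. Cdh1, which encodes E-cadherin, a ligand of KLRG1, read 4.95 and 5.04, 5.88 and 4.97, and 233 and 102, at the level of the nonspecific controls outside the BTNL2 wells (adjusted p = 0.000122 over B7-2). With the dim arrays set no lower than their highest nonspecific control, Cdh1 was at least 27.4-fold higher than with B7-2. The BTNL2 arrays of Cdh1 differed from each other more than for any member called. Ulbp1, which encodes the NKG2D ligand MULT1, rose over B7-2 (log2 change 0.63 ± 0.15, adjusted p = 0.0283), from 20.8 and 20.6 to 36.5 and 28.1. The other listed ligand genes measured were not called in any comparison. They were H60b (3.88 to 4.53 on the 6 arrays), the cadherin genes Cdh2 (7.52 to 8.44) and Cdh4 (10.05 to 11.4), and Clec2e, Clec2g and Clec2h. The MHC class I genes H2-K1 (1878 to 2352) and H2-D1 (2298 to 2867) complete this group.

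Clec2i and Clec2d encode lectin ligands of NKR-P1 receptors. The brighter probe set of Clec2i read 72.4 and 58.4, 9.73 and 15.5, and 94.5 and 82.1, so it fell with B7-2 (log2 change -2.41 ± 0.22, adjusted p = 0.000717) and rose with BTNL2 over B7-2 (2.85 ± 0.22, adjusted p = 0.000205), while BTNL2 against anti-CD3 did not pass (0.44 ± 0.22, adjusted p = 0.22). The dimmer Clec2i probe set gave -1.31 and 2.24 and was also called higher against anti-CD3 (log2 change 0.94 ± 0.18, adjusted p = 0.00845). Clec2d read 701 and 756, 412 and 413, and 491 and 533. It fell with B7-2 (log2 change -0.82 ± 0.10, adjusted p = 0.002), and BTNL2 against B7-2 did not pass (0.31 ± 0.10, adjusted p = 0.088). With BTNL2 Clec2d was lower than with anti-CD3 alone (log2 change -0.51 ± 0.10, adjusted p = 0.00916). Of 13 measured ligand genes out of 22 listed, 3 rose and 1 fell with BTNL2 over B7-2, 0 rose (1 at an unadjusted p under 0.05 in limma) and 3 fell with B7-2 over anti-CD3, and 2 rose and 2 fell with BTNL2 over anti-CD3. The shares of all genes called in these comparisons were 17.4%, 21.3% and 27.4%, so the ligand counts were near the background in the last 2.

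**Figure D3:**
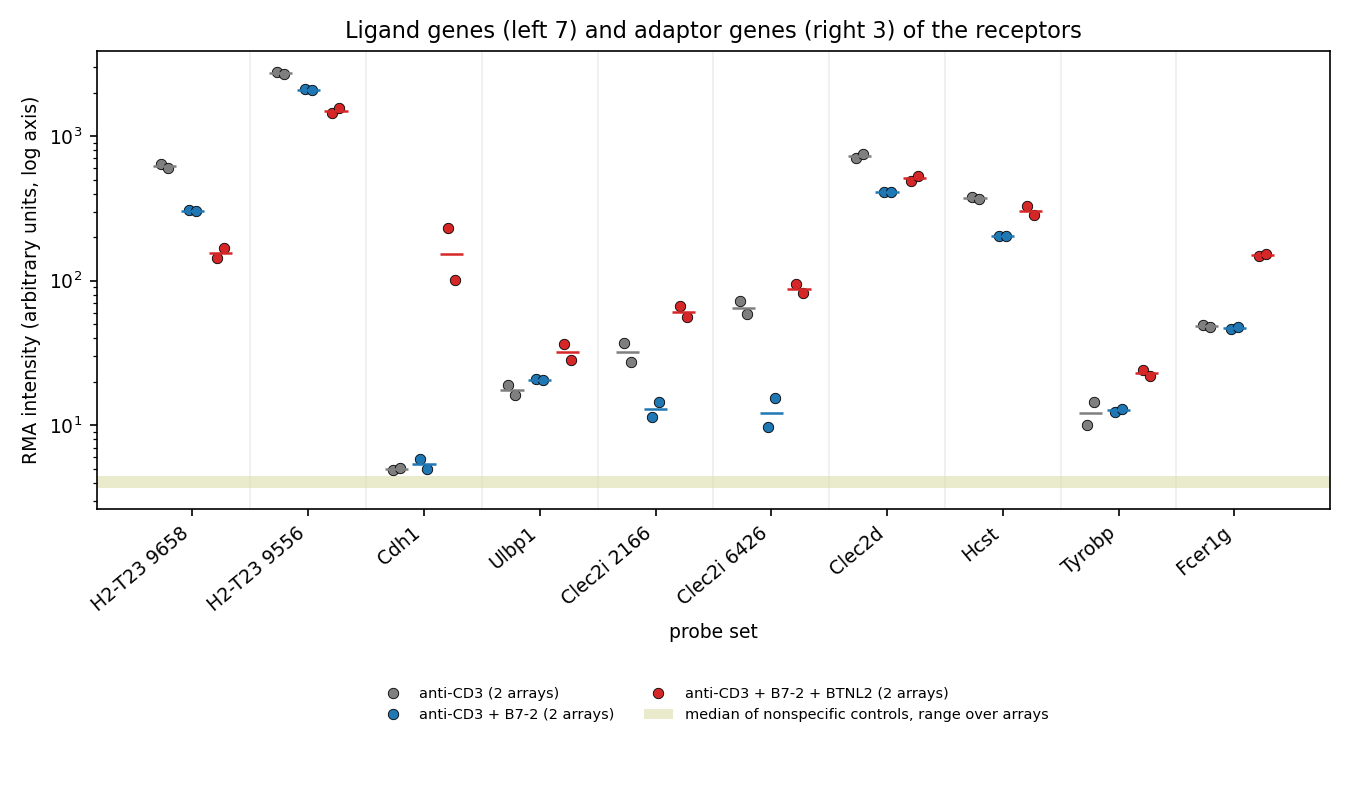
RMA intensity on a log axis of each array for ligand and adaptor genes (horizontal axis, with the last digits of the probe set where a gene has 2), drawn as for the receptors. H2-T23 steps down from anti-CD3 to B7-2 to BTNL2 in both probe sets, while Fcer1g (148 and 153), Tyrobp (24 and 22) and Cdh1 (233 and 102) are high in the BTNL2 wells only.

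Transcription factor genes known from NK and cytotoxic T cells were followed from a list of 24, of which 22 were measured. With BTNL2 over B7-2, 10 rose and 2 fell, with a median log2 change of 0.27, against -0.01 over all genes. Eomes, the T-box factor of NK cells and memory CD8 T cells, rose from 20 and 16.3 to 1337 and 991 (log2 change 6.00 ± 0.18, adjusted p = 6.66e-06). Id3, an inhibitor of E proteins, rose (1.44), as did Ikzf2, which encodes Helios (1.40), while Nfil3, which is needed for NK cell development, fell (-1.24). Runx3, which represses Cd4 in the CD8 lineage, rose by a log2 change of 0.64 (adjusted p = 0.00411). Tbx21, which encodes T-bet, did not pass (552 and 702, 568 and 512, and 389 and 493, log2 change -0.30, adjusted p = 0.296). Against anti-CD3 alone 8 rose and 4 fell, and with B7-2 over anti-CD3 2 rose, Prdm1 (1.28) and Ikzf2 (1.26), and 6 fell, of which Id3 (-0.96) and Stat4 (-0.74) changed most. The shares of all genes called were 17.4% for BTNL2 over B7-2, 27.4% for BTNL2 over anti-CD3 and 21.3% for B7-2 over anti-CD3.

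Markers of other cell types were read beside these results, since the cultures may hold small numbers of other cells. Marker counts, here and in the next paragraph, stand against the shares of all genes called. These were 17.4% for BTNL2 over B7-2, 27.4% for BTNL2 over anti-CD3 and 21.3% for B7-2 over anti-CD3. In bulk RNA, a change in the number of cells of a type and a change in the RNA per cell cannot be told apart. The T cell markers Cd3e (2984 to 4133), Cd3d (4073 to 5350) and Cd4 (1103 to 1705) were bright on all 6 arrays, as the label of the cells states, and with BTNL2 over B7-2 0 of 6 T cell markers rose, also at an unadjusted p under 0.05 in limma, and 2 fell (Cd5, -1.01, and Cd28, -0.75). Cd4 itself was lower with BTNL2 than with anti-CD3 alone (log2 change -0.53, adjusted p = 0.00847), 1 of 4 T cell markers that fell there, and their summed intensity was 16939 and 16402 with anti-CD3, 12584 and 12932 with B7-2 and 12142 and 12099 with BTNL2. Of 16 NK cell markers 12 were measured. Ncr1, which encodes the NK receptor NKp46, read 4.75 to 6.62 on the 6 arrays, close to the nonspecific controls, and was not called in any comparison (log2 change 0.31 over B7-2, adjusted p = 0.161). Nor were Klra1, Ncam1, Itga2 and Fcgr3 called between BTNL2 and B7-2. The 6 NK markers that rose over B7-2 were Fcer1g (1.68), Klra9 (1.48), Gzma (1.44), Cd244a (0.95), Tyrobp (0.85) and Nkg7 (0.43), and 0 fell, also at an unadjusted p under 0.05 in limma. Over anti-CD3 alone 7 rose, and with B7-2 over anti-CD3 1 did, Prf1 by its brighter probe set (0.33, adjusted p = 0.0468), while the dimmer Prf1 probe set was called lower (-0.94, adjusted p = 0.0378). The summed intensity of the 12 was 4796 and 5055 with anti-CD3, 4990 and 5055 with B7-2 and 9318 and 9563 with BTNL2. Gzma and Nkg7 carried most of this sum (4685 and 4743 with B7-2, 8816 and 9076 with BTNL2), and the other 10 summed to 287 and 292, 305 and 312, and 502 and 488 in the 3 groups.

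Markers of CD8 T cells were lowest with B7-2 and highest with BTNL2, as Klrd1 was. Cd8a, the CD8 alpha chain, read 302 and 321, 119 and 107, and 987 and 924 in the 3 groups. All 4 CD8 T cell markers (Cd8a, Cd8b1, Crtam and Ctsw) fell with B7-2 and rose with BTNL2 over B7-2, with median log2 changes of -1.23 and 2.89, and their summed intensity was 2848 and 3045, 645 and 580, and 4638 and 4045. Ctsw carried most of this sum (2416 and 2582, 446 and 410, and 3274 and 2771). Against anti-CD3 2 of the 4 rose. Of 5 markers of innate-like T cells 4 rose over B7-2 and 3 over anti-CD3 (summed intensity 3167 and 3142 with anti-CD3, 2967 and 2968 with B7-2, 4209 and 4354 with BTNL2). Among 3 measured gamma-delta T cell markers 2 rose over B7-2, Trgv1 from 16.6 and 14.5 to 875 and 673 and Blk (0.50). The third, Sox13, read 5.87 to 7.7 on the 6 arrays and was not called there. The summed intensity of the 3 went from 38.7 and 38.9 to 908 and 702, and Trgv1 carried most of it with BTNL2. With anti-CD3 alone the sum was 61.2 and 61.9, and only 1 of the 3 was higher with BTNL2 than there. Blk read 30.6 and 29.95 with anti-CD3 and 26.1 and 22.8 with BTNL2. Of 5 B cell markers 3 rose and 1 fell over B7-2, and 1 was higher and 2 lower against anti-CD3. Their sum was 706 and 675 with anti-CD3, 453 and 409 with B7-2 and 621 and 799 with BTNL2. Of the 8 markers of myeloid cells 0 were called by limma in any comparison (0, 0 and 1 at an unadjusted p under 0.05), with 88.2 to 99.1 summed over them. The part of other cells in the rise of the receptors was not tested.

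**Figure D4:**
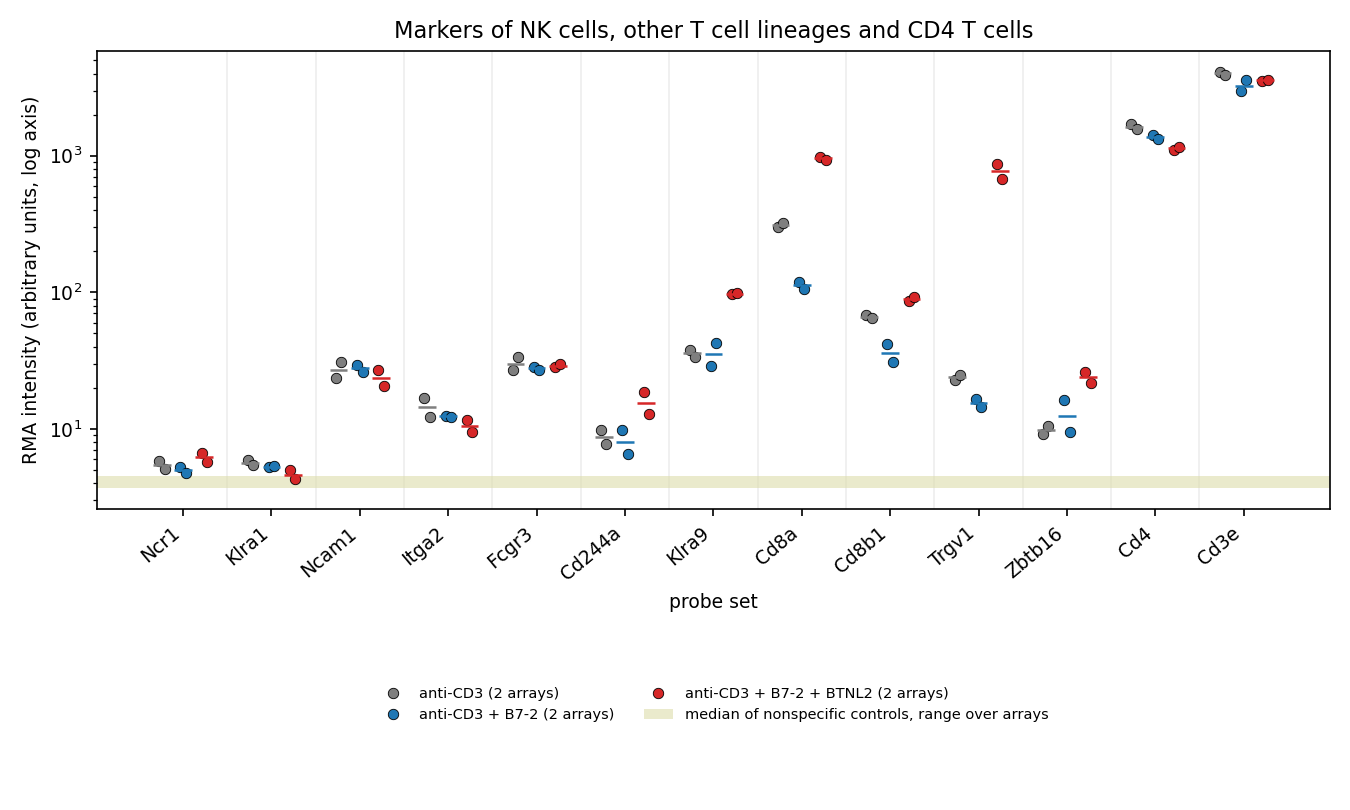
RMA intensity on a log axis of each array for markers of NK cells (Ncr1 to Klra9), CD8 T cells (Cd8a, Cd8b1), gamma-delta T cells (Trgv1), innate-like T cells (Zbtb16) and CD4 T cells (Cd4, Cd3e), drawn as for the receptors. Ncr1 and Klra1 lie close to the band of the nonspecific controls on all arrays. Cd8a (987 and 924), Trgv1 (875 and 673) and the NK cell marker Klra9 (96.9 and 98.9) are highest in the BTNL2 wells. Not every marker measured is drawn. Left out are the NK cell markers Fcer1g, Gzma, Tyrobp and Nkg7, which rose over B7-2, and the gamma-delta T cell markers Sox13 and Blk. Of the 12 NK cell markers measured, 6 rose over B7-2 and 0 fell.

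Likeness of pattern was measured by Pearson's r of log2 intensities over the 6 arrays, against 2456 other genes (2457 for Klrg1) whose log2 values spanned at least 1. With only 3 groups many genes share a pattern: 95 genes had r over 0.95 with Klrd1 and 187 with Klrk1. Most like Klrd1 were Nlrc3 (r = 0.996), Lax1 (0.993), Calhm6 (0.992), Slc2a6 (0.992) and Epsti1 (0.989). Nlrc3, for example, read 352 and 342, 111 and 126, and 455 and 469, low with B7-2 and highest with BTNL2 as Klrd1 was. Most like Klrk1 were Cd160 (0.999), Pld4 (0.996), Arhgef18 (0.996), Isg20 (0.994) and Pla2g4f (0.994). Cd160, which encodes another receptor of NK cells and cytotoxic T cells, read 39 and 49, 26.5 and 31, and 186 and 183. For Klrc1 the closest were Icosl (0.996), Ifit1 (0.996), Akap12 (0.996), Rhoh (0.995) and Cxcr6 (0.994), for Klra5 Larp1b (0.997), Nrros (0.996), Zdhhc15 (0.996), Ccn3 (0.995) and Gzma (0.994), and for Klrg1 Zfpm1 (0.990), Fli1 (0.986), Col23a1 (0.986), Uap1 (0.983) and Aqp9 (0.975). Among the members themselves r was 0.976 between Klrc1 and Klra5, 0.966 between Klrk1 and Klrc1 and 0.732 between Klrd1 and Klrc1, the chains of 1 receptor. These correlations share the same 6 arrays and 3 groups and are descriptions.

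**Figure D5:**
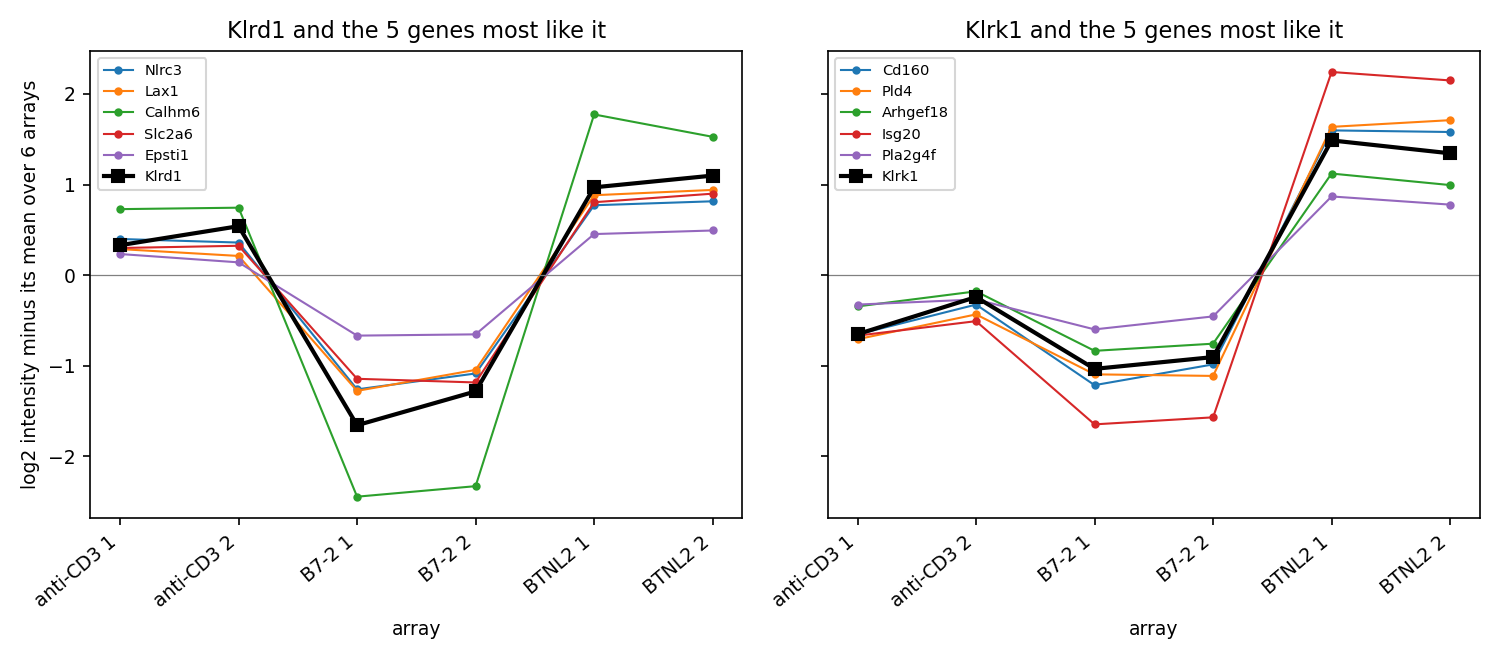
Log2 intensity on each of the 6 arrays minus its mean over them (vertical axis), for Klrd1 and Klrk1 (black squares) and the 5 genes most like each (coloured circles). Klrd1 and its 5 genes dip in the B7-2 wells and peak in the BTNL2 wells, and Klrk1 and its 5 genes differ mainly between the BTNL2 wells and the other 4 arrays.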

How the data were processed

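Messenger RNA of 6 cultures was amplified from 50 ng of total RNA and hybridised to 1 array each, per the labels' protocols. The values are intensities that the authors deposited after RMA, per the submitters' processing notes. This method subtracts background, equalises the distributions of the arrays and summarises probes, which hides a shift shared by most genes. Neither its version nor a genome build is named in the labels or files. The values were on a linear scale and were log2 transformed. Depth has no meaning for arrays, and their number, 2 per group, limits the precision.

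Of 45141 probe sets 104 were controls and left out. The platform annotation gave 28898 probe sets 1 symbol, 551 several and 15588 none, and 28689 symbols were updated by Entrez identifier. No probe set with several symbols named a member. All 45037 probe sets were fitted with limma 3.58.1 in R 4.3.3 (lmFit, eBayes, 3 residual and 4.44 prior degrees of freedom), without a replicate block, and were called at an adjusted p (Benjamini-Hochberg, two-sided) under 0.05. The 95% intervals are from the same fit and are not adjusted. Genes of the 13 lists (175 genes) each took their brightest probe set. Some genes stand in more than 1 list, such as Crtam, Ctsw, Gzma, Nkg7 and Cd160, so the lists are not independent of each other. Named were, per list and comparison, up to 4 called genes with the largest change, with all members, direct adaptors and ligands, and the 5 genes of highest r with each member called. Runx3, Tbx21, Ncr1 and other genes that did not lead a list were named after their values were seen. The fit was tested on simulated data. The members and lists were chosen with earlier results of these data known. Alternatives changed the variance prior, the arrays in the fit, the filter, an offset, the scaling, the probe sets per gene, the threshold, the block and each array in turn. Promoters are from RefSeq, GRCm38.p6.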

Additional observations from a re-analysis of the deposited data

How the results depend on the processing

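In the comparison of B7-2 with anti-CD3 the number of member probe sets called was 1 and became 2, with Klrk1 added, with a variance prior that follows intensity, without dim probe sets, with 1 probe set per gene and with the mean of the probe sets of a gene, and it was 1 to 2 when an array was left out. For BTNL2 against B7-2 it was 5 and, without 1 array, 4 to 5. For BTNL2 against anti-CD3 it was 5, 3 at an adjusted p under 0.01, and 3 (without the second BTNL2 array) to 4 without 1 array. Among all probe sets, 7809, 6222 and 10010 were called in the 3 comparisons, 3740, 3053 and 5999 at an adjusted p under 0.01, 4190, 3482 and 5197 with 1 probe set per gene, and 4068, 3446 and 5137 with the mean of the probe sets, where fewer features were tested. Without 1 array the totals ranged from 4202 to 4712, from 3333 to 4588 and from 6678 to 7531. The calls of Klrk1, the brighter Klrc1 probe set and Klra5 in both BTNL2 comparisons, and of Klrd1 in BTNL2 against B7-2 and in B7-2 against anti-CD3, kept their direction and stayed past the threshold under every alternative run. Those of Klrd1 against anti-CD3 and of Klrg1 did not, with the values given above. The mean of both Klrc1 probe sets had a log2 change of 0.74 against B7-2, whereas the second probe set alone had -0.21. The labels do not say whether replicate numbers pair the samples. Correlations of the differences between duplicates were -0.04 to -0.01 between groups. With 1 such difference per group they cannot tell whether cultures of the same number shared an animal or day. With the replicate block 7143, 5691 and 9346 probe sets were called and 1, 5 and 5 members. Dim probe sets, such as Klra5 outside the BTNL2 wells, have changes that rest on signal close to background.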

Other observations

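Other receptors of NK cells and cytotoxic T cells, outside the lectin family, were taken from a list of 26 genes, of which 21 were measured. With BTNL2 over B7-2, 9 rose and 3 fell at a limma adjusted p under 0.05, with a median log2 change of 0.31, where 17.4% of genes were called. Crtam, an adhesion receptor of activated T cells and NK cells, rose by a log2 change of 2.96, Cd160 by 2.69, and the IL-18 receptor genes Il18r1 and Il18rap by 2.49 and 2.42. Il12rb2, a chain of the IL-12 receptor, fell by 1.18 on the log2 scale, and the inhibitory receptor gene Lilrb4a fell by 1.5 on that scale. Over anti-CD3 alone 10 rose and 4 fell, and with B7-2 over anti-CD3 2 rose and 4 fell, among them the collagen receptor gene Lair1 (-1.53) and Slamf6 (-1.05). The shares of all genes called there were 27.4% for BTNL2 over anti-CD3 and 21.3% for B7-2 over anti-CD3.

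Cytotoxic effector genes were measured in full, 22 of 22. With BTNL2 over B7-2, 14 rose and 2 fell, with a median log2 change of 1.00, and over anti-CD3 15 rose and 1 fell. The shares of all genes called were 17.4% and 27.4% in these comparisons and 21.3% for B7-2 over anti-CD3. The chemokine gene Xcl1 rose from 7.59 and 6.01 to 1782 and 1363, the granzyme gene Gzmc from 252 and 240 to 2190 and 2644, and the protease gene Ctsw from 446 and 410 to 3274 and 2771. Prf1, which encodes perforin, did not pass over B7-2 with its brighter probe set (126 and 127, then 136 and 130, log2 change 0.07, adjusted p = 0.724), while the dimmer probe set rose by 1.80. With B7-2 over anti-CD3, 5 rose, led by Ifng (2.26) and Fasl (1.67), and 4 fell, led by Ctsw (-2.54) and Crtam (-0.99).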
